A study of Mus musculus with 48 samples.

Results

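The genes described here write, copy, erase and excise cytosine methylation: the DNA methyltransferase genes Dnmt1, Dnmt3a and Dnmt3b, the cofactor genes Uhrf1 and Dnmt3l, the oxygenase genes Tet1, Tet2 and Tet3, and the glycosylase gene Tdg. They were taken by name as 9 of the 55376 genes in the count table. No measured value was a criterion, but earlier results of these data were known. Their newly made RNA was counted in a mouse embryonic stem cell line, TCF2.2, of C57BL/6 strain, kept on gelatin in serum-free 2i medium. Cells took up 4-thiouridine at 500 µM for 5 min, and the RNA that carried it was biotinylated, captured and sequenced, so that a level reads RNA made in that pulse, not the stock of finished mRNA. One pair of groups received 10 µM BRM014, an inhibitor of the ATPases BRG1 and BRM of the SWI/SNF remodellers, or the solvent DMSO for 3 h. The other pair was transduced with lentivirus carrying a Chd4 shRNA or a scrambled shRNA and kept for 24 h in 2i medium with 1.5 µg/mL puromycin; Chd4 is the remodelling ATPase of NuRD. Each of the 4 groups has 2 libraries, and nothing in the labels says that the 2 came from separate cultures, so p-values measure only the spread between these libraries. Columns of the count table call the shRNA libraries r1 and r4 (Chd4) and r1 and r3 (scrambled), and those names are used here.

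Methylation of cytosine in CG pairs is set by DNMT3A and DNMT3B and is restored after replication by DNMT1, which UHRF1 brings to half-methylated sites. DNMT3L has no catalytic activity of its own and assists the DNMT3 enzymes in the germ line and the early embryo. TET proteins oxidise 5-methylcytosine stepwise, and TDG cuts out the most oxidised forms for base excision repair. Embryonic stem cells in 2i medium are known for low methylation, low Dnmt3 expression and abundant TET1 and TET2.

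Total counts ran from 6982354 to 17128981 per library, and the 2 labelled Chd4 shRNA were the shallowest. Olfactory and vomeronasal receptor genes, 1434 genes with 5330.3 kb that these cells should not express, served as a measure of background. They held 6.78 and 7.21 counts per kb in the libraries labelled Chd4 shRNA and 1.32 to 2.66 in the other 6. Tests ran over the 8017 genes whose mean count was at least 10-fold above that background (10-fold genes), and over 15464 genes at least 3-fold above it (3-fold genes). Of 10 embryonic stem cell markers, 10 stood 10-fold above background in 3 groups and 9 in the libraries labelled Chd4 shRNA, where their summed level was 2480 to 2641 against 3160 to 4143 elsewhere. None of 6 fibroblast or feeder markers stood 10-fold above background in any group and none was at 0 counts. Their summed level was 3.58 to 4.14 in the libraries labelled Chd4 shRNA and 0.167 to 0.497 elsewhere. The 6 primitive endoderm markers had 1.47 to 1.91 there and 0.495 to 0.786 elsewhere. None of these stood 10-fold above background or was at 0 counts either. The summed levels had only the background of the receptor genes subtracted. A second set of 130 silent genes held 9.56 and 9.32 counts per kb in the libraries labelled Chd4 shRNA and 1.46 to 3.49 elsewhere. Chd4 itself was counted 730 and 760 times where the label is Chd4 shRNA and 806 and 618 times in the scrambled libraries, a log2 fold change of 0.59 ± 0.16 (SE, edgeR adjusted p = 0.00614) in the direction opposite to a knockdown. An shRNA acts on finished mRNA, which was not measured here, so the nascent RNA does not check that label. Smarca4, which encodes BRG1, was not called with BRM014 (0.11 ± 0.16, adjusted p = 0.757), and BRM014 acts on the protein.

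Promoter sequences from RefSeq (build GRCm38.p6, from 250 bases before to 50 after an annotated start) matched all 9 genes. Those of the 6 genes that passed a background limit and changed in at least 1 comparison below are printed in the direction of the gene with CG pairs in capitals, because the members differ most visibly in the density of CG, the letters that their own enzymes act on. Uhrf1 start 2 lies at chr17:56304063-56304362 on the + strand, Dnmt3b start 1 at chr2:153649199-153649498 (+), Dnmt3l start 1 at chr10:78042037-78042336 (+), Tet1 start 1 at chr10:62887275-62887574 (-), Tet2 start 1 at chr3:133544341-133544640 (-) and Tet3 start 1 at chr6:83441629-83441928 (-).
Uhrf1 start 2: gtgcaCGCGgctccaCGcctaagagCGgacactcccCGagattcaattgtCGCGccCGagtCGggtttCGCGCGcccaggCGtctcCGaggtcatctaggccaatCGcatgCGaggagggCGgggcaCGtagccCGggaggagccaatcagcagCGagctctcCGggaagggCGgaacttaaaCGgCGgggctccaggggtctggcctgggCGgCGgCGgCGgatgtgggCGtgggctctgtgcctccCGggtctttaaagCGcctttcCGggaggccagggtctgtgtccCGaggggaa
Dnmt3b start 1: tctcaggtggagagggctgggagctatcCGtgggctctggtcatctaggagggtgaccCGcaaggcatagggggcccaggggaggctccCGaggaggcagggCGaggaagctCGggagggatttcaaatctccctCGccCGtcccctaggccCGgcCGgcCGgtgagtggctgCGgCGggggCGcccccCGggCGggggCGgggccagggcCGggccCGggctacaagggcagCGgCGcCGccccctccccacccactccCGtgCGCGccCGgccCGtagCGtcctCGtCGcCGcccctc
Dnmt3l start 1: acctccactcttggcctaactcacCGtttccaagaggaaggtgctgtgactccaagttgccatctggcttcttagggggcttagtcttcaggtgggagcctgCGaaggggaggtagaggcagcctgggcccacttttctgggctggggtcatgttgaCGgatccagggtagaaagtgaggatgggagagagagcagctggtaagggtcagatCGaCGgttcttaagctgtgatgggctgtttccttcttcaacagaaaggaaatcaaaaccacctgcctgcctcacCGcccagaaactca
Tet1 start 1: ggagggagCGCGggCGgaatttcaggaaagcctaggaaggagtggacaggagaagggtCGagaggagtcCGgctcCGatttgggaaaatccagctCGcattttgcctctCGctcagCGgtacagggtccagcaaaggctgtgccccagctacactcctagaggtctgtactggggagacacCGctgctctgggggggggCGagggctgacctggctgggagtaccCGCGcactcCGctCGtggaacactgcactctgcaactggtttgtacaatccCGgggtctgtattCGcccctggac
Tet2 start 1: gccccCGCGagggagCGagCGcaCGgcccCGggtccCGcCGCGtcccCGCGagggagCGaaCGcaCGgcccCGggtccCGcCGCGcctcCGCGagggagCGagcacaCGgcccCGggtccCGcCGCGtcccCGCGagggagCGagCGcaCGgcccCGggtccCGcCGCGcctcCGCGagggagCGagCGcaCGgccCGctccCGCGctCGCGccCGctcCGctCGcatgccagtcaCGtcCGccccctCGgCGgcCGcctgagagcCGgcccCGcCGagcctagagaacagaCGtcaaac
Tet3 start 1: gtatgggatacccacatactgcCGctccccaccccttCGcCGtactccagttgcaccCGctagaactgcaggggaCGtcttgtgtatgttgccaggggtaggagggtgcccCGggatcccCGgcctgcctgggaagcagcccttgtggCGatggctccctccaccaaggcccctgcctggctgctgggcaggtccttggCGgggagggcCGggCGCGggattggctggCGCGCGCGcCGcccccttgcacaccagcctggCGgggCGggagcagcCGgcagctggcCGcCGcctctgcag

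The Tet2 window held 57 CG pairs, more than 99.8% of 32841 promoters of the same length, whose median was 7. Windows of Uhrf1 start 2, Dnmt3b, Tet3 and Tet1 held 33, 30, 22 and 17. Dnmt3l stood at the other end, with 6 CG pairs at start 1, 4 at start 2 and 3 at start 3. Among promoters not printed, Dnmt3a held 46, 47 and 18 CG pairs at its 3 starts and Tdg 26. Dnmt1 ranged from 2 CG pairs at start 1 to 12 at start 2 and 33 at start 3, and Uhrf1 start 1 held 12. Beside CG, both strands were searched for GGGCGG (in 35.7% of the 32841 promoters), CCAAT (37.4%), TATAAA (13.6%), CACGTG (7.15%), TTTCCCGC (1.07%) and TTTGGCGC (0.515%); GGGCGG contains a CG pair. GGGCGG occurred 4 times in the Dnmt3b window, 3 times at Uhrf1 start 2, 2 times in that of Tet3 and once each in those of Tet1, Tet2 and Dnmt3l start 1. Among windows not printed it occurred 6, 7 and 2 times at the 3 starts of Dnmt3a, 2 times each at Dnmt1 start 3 and Dnmt3l start 2, and once at Uhrf1 start 1. CCAAT occurred 5 times at Dnmt1 start 1, 3 times each at Dnmt1 start 3 and Uhrf1 start 1, 2 times at Uhrf1 start 2 and once each for Tet3 and Tdg. TTTGGCGC occurred only at Dnmt1 start 3, and no window of the 9 genes held TATAAA or TTTCCCGC.

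In the count table's coordinates (mm10) the maintenance genes lie at chr9:20907209-20959888 on the - strand (Dnmt1) and chr17:56303321-56323486 on the + strand (Uhrf1). The genes of the DNMT3 group lie at chr12:3806007-3914443 (Dnmt3a), chr2:153649450-153687730 (Dnmt3b) and chr10:78041947-78063622 (Dnmt3l), all on the + strand. The oxygenase genes lie at chr10:62804570-62908996 (Tet1), chr3:133463679-133545139 (Tet2) and chr6:83362373-83459084 (Tet3), all on the - strand, and Tdg lies at chr10:82629828-82650799 on the + strand. Only Uhrf1 shares its span with no other annotated gene. Dnmt3l overlaps Aire on the opposite strand, which was counted 72 and 57 times where the label is Chd4 shRNA and 9 to 27 times elsewhere. Tet1 overlaps Gm48353 on its own strand (mean count 40.8), Tet3 overlaps 5430434F05Rik on its own strand (mean count 25.4) and Tdg overlaps Glt8d2 on the opposite strand (mean count 28.5). The library kit keeps strand, but whether the counting used it is not given in the sources used here, so reads shared by such pairs cannot be assigned. Tdg also has a processed copy, Tdg-ps, with 28 to 56 counts per library, and Dnmt3b a near copy, Dnmt3c, with 5 to 32, and Tdg and Dnmt3b are uncertain to that extent.

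The genes differed in how far they stood above background. Uhrf1, Dnmt1 and Tet1 had mean counts 86.0, 34.8 and 29.6 times the background and were 10-fold genes. Tdg (8.89 times), Tet2 (7.64), Dnmt3l (5.69), Dnmt3b (5.53) and Tet3 (3.21) were only 3-fold genes, and Dnmt3a, at 2.34 times, passed neither limit. In the libraries labelled Chd4 shRNA every member lay closer to background than in scrambled libraries, except Dnmt3l: Uhrf1 was at 12.5 and 13.2 times the background, against 155 and 105. Dnmt3l was at 5.43 and 4.97 times there and at 4.55 and 4.01 in the scrambled libraries. A level below is a count less its expected background, per kb of the gene length in the table and per 1000000 counts on the TMM scale of the 10-fold genes, which lets genes be set side by side.

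**Figure D1:**
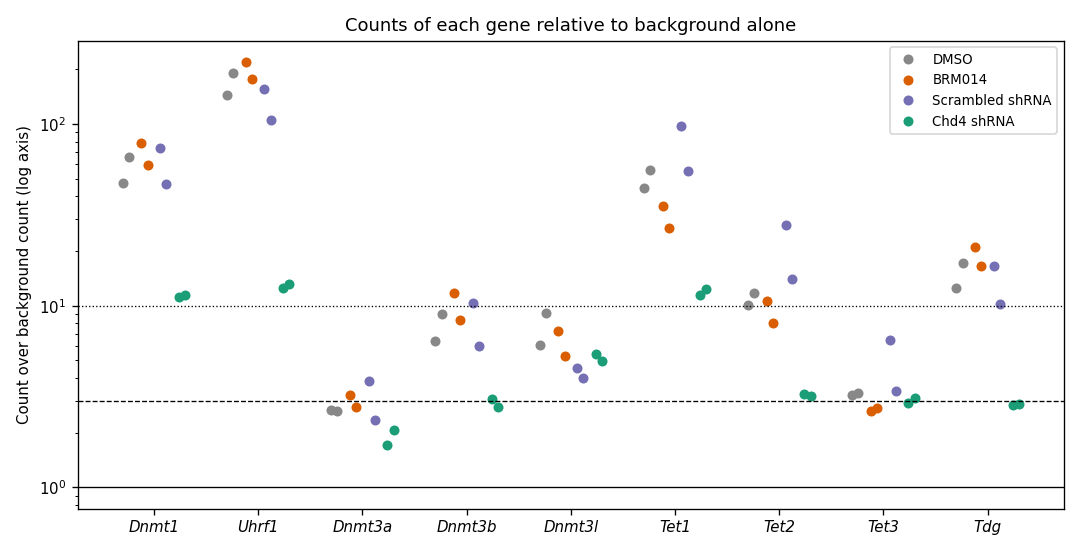
Count of each gene divided by the count that background alone gives over its length, on a log axis, with 1 point per library and colours for the 4 groups (lines at 1, 3 and 10). Points of the libraries labelled Chd4 shRNA lie lowest for every gene but Dnmt3l and Tet3, with Dnmt3a at 1.70 and 2.06.

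In DMSO, mean levels descended from Uhrf1 (25.2 ± 3.72, SD, n = 2) through Dnmt1 (8.43 ± 1.53), Tet1 (7.44 ± 0.885), Tdg (2.09 ± 0.399), Tet2 (1.51 ± 0.104), Dnmt3b (1.01 ± 0.223), Dnmt3l (0.991 ± 0.264) and Tet3 (0.345 ± 0.0101) to Dnmt3a (0.250 ± 0.0140). Dnmt1 and Tet1 overlapped between libraries, as did Dnmt3b and Dnmt3l, while the other neighbours in that order did not. In DMSO the maintenance genes thus had the highest mean nascent levels, though Dnmt1 overlapped Tet1, and Dnmt3a and Dnmt3b were low. With BRM014 the order was kept at the top, but Tet1 (4.08 ± 0.434) no longer overlapped Dnmt1 (9.21 ± 0.962). In scrambled libraries Tet1 (12.6 ± 2.25) lay above Dnmt1 (10.0 ± 0.998), and Tet2 (3.28 ± 0.911) above Tdg (2.08 ± 0.295). In libraries labelled Chd4 shRNA, Uhrf1 (15.5 ± 1.57), Tet1 (14.1 ± 1.68) and Dnmt1 (13.4 ± 1.06) came first, each overlapping the next, and Dnmt3l (5.45 ± 0.0947) came right after them. Tet2, Tet3, Dnmt3b and Tdg then lay between 2.40 and 2.90 as means.

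**Figure D2:**
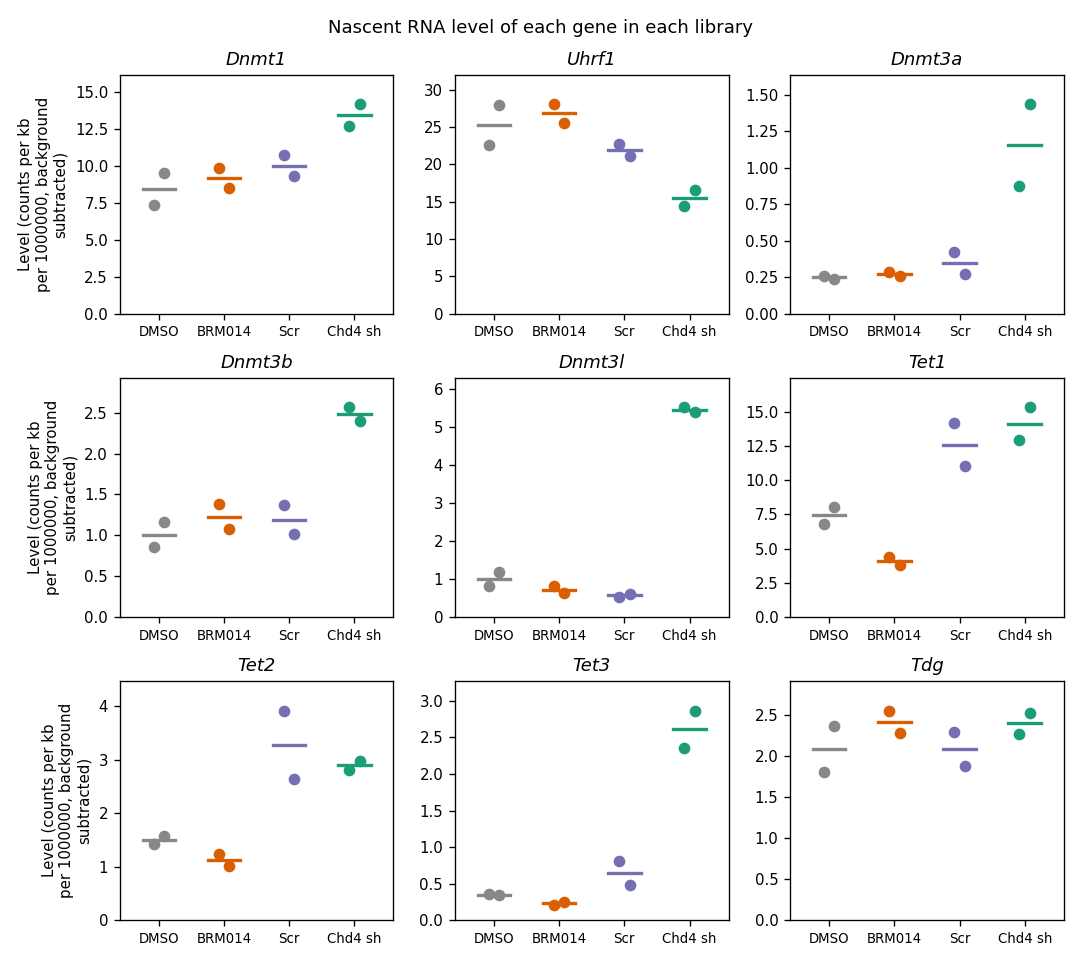
Level of each gene (background-subtracted counts per kb per 1000000, linear axes from 0) in each library, with 1 point per library and a bar at the mean of the 2 in a group; Scr is scrambled shRNA and Chd4 sh the libraries labelled Chd4 shRNA. Tet1 is lowest with BRM014, and Dnmt3l and Tet3 are highest in the libraries labelled Chd4 shRNA.

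The comparison of BRM014 with DMSO asked which nascent RNAs differ after 3 h without SWI/SNF ATPase activity. Tet1 fell and no other member was called. Of the 3 members among the 10-fold genes, edgeR called 1 lower and 0 higher (at an unadjusted p under 0.05 also 1 and 0, and by DESeq2 1 and 0), where 7.15% of all 10-fold genes were called. Of the 8 members among the 3-fold genes it was again 1 lower and 0 higher (3 and 0 at an unadjusted p under 0.05, and by DESeq2 1 and 0), where 8.41% of all 3-fold genes were called.

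Tet1, the main 5-methylcytosine oxygenase of stem cells, had levels of 4.39 and 3.78 with BRM014 and 6.81 and 8.07 with DMSO. Both BRM014 libraries lay below both DMSO libraries, from 906 and 1098 counts against 1800 and 2312. Its log2 fold change was -0.86 ± 0.15 (SE), a 1.81-fold lower level with an edgeR adjusted p of 0.000864. The call ended without BRM014 r2 (log2 fold change -0.72, adjusted p = 0.0518) and when library sizes came from the ERCC spike-in RNAs, which left the change at -0.86 to -0.75 with adjusted p from 0.227 to 1.00.

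Tet2, the second abundant oxygenase, had levels of 1.24 and 1.02 with BRM014 and 1.43 and 1.58 with DMSO. The groups did not overlap, but the log2 fold change of -0.37 ± 0.15 was not called (edgeR adjusted p = 0.132). Tet3, the oxygenase best known from the zygote, had levels of 0.209 and 0.251 against 0.352 and 0.337. It too did not overlap, with a log2 fold change of -0.40 ± 0.17 (edgeR adjusted p = 0.166), and background made up 36.8% to 38.0% of its counts with BRM014. All 3 Tet genes thus had lower values in both BRM014 libraries, and only Tet1 passed the test.

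The methyltransferase genes stayed within the spread of their libraries. Dnmt1 had levels of 9.89 and 8.53 with BRM014 and 7.35 and 9.51 with DMSO, and Uhrf1 28.0 and 25.6 against 22.6 and 27.9, so that both pairs overlapped. Their log2 fold changes were 0.11 ± 0.14 (edgeR adjusted p = 0.722) and 0.08 ± 0.14 (0.810). Dnmt3a (0.284 and 0.259 against 0.260 and 0.240) and Dnmt3b (1.38 and 1.08 against 0.851 and 1.17) overlapped as well. The log2 fold change of Dnmt3b was 0.24 ± 0.17 (edgeR adjusted p = 0.440), and that of Dnmt3a, from a fit over all 35426 tested genes, 0.02 ± 0.18 (0.978), where 2.69% of all tested genes were called. Dnmt3l had levels of 0.801 and 0.630 against 0.804 and 1.18, each BRM014 library below each DMSO library, with a log2 fold change of -0.42 ± 0.22 that was not called (adjusted p = 0.262). Tdg, with 2.56 and 2.28 against 1.80 and 2.37, overlapped and had a log2 fold change of 0.21 ± 0.14 (adjusted p = 0.419).

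The comparison of the libraries labelled Chd4 shRNA with the scrambled shRNA asked the same of NuRD after 24 h. Dnmt3l, Tet3 and Dnmt3b rose and Uhrf1 fell, while Dnmt1, Tet1, Tet2 and Tdg were not called. Of the 3 members among the 10-fold genes, edgeR called 1 lower and 0 higher (1 and 1 at an unadjusted p under 0.05, and by DESeq2 1 and 0), where 40.6% of all 10-fold genes were called. Of the 8 among the 3-fold genes it called 3 higher and 1 lower, where 50.2% of all 3-fold genes were called, so a share of this size was near that of the whole table. Median log2 fold changes were 0.03 over the 8 members and 0.03 over all 3-fold genes. The scale of the 3-fold genes lies 0.37 (log2) below that of the 10-fold genes in this comparison, so values on the scale of the 10-fold genes with background subtracted are given too.

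Dnmt3l, the catalytically inactive partner of the DNMT3 enzymes, had levels of 5.51 and 5.38 in the libraries labelled Chd4 shRNA and 0.522 and 0.611 in the scrambled ones. It was high in both of the former and low in the other 6 libraries, none of which exceeded 1.18. From 110 and 107 counts against 18 and 22, the log2 fold change was 2.58 ± 0.22, a 5.99-fold rise with an edgeR adjusted p of 2.3e-11. With background subtracted it was 3.23 ± 0.30. Of the 19 alternatives all kept the call, with log2 fold changes from 1.45 to 3.54. Aire on the opposite strand also had its highest counts in these libraries, and the part of shared reads in the rise was not tested.

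Tet3 had levels of 2.36 and 2.87 against 0.804 and 0.486, with no overlap. Its raw counts were also higher, 328 and 375 against 143 and 104, in libraries of smaller total. The log2 fold change was 1.66 ± 0.15 (edgeR adjusted p = 1.03e-10), a 3.16-fold rise, and 2.02 ± 0.19 with background subtracted. All 19 alternatives kept the call, from 0.52 to 2.66. Background accounted for 34.5% and 32.1% of its counts in the libraries labelled Chd4 shRNA, and Tet3 passed the 3-fold limit on its mean, with its highest single ratio (6.47) in a scrambled library.

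Dnmt3b, a de novo methyltransferase that rises as stem cells leave the ground state, had levels of 2.57 and 2.40 against 1.38 and 1.01. The groups did not overlap, and both libraries labelled Chd4 shRNA were above all others. Its log2 fold change was 0.87 ± 0.18 (edgeR adjusted p = 0.000172), a 1.83-fold rise, and 1.05 ± 0.24 with background subtracted. Its call ended when library sizes came from TMM over 92 ERCC RNAs (log2 fold change 1.43, adjusted p = 0.113), and without the background filter the direction turned (-0.11, adjusted p = 0.616).

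Dnmt3a, the other de novo enzyme, had levels of 0.873 and 1.44 against 0.420 and 0.275, without overlap. Background made up 58.8% and 48.6% of its counts in the libraries labelled Chd4 shRNA. Its 11.5 and 14.8 counts per kb lay just above the 95th percentile of the receptor genes there, 11.1 and 11.4. In a fit of all 35426 tested genes on the scale of the 10-fold genes, added after the data were seen, its log2 fold change was 2.01 ± 0.17 (edgeR adjusted p = 3.29e-11), where 80.2% of all tested genes were called, most of them near background. Subtracting background gave 1.73 ± 0.23, and subtracting that of 130 other silent genes 1.23 (adjusted p = 0.000105). DESeq2 over the same genes gave 0.52 (adjusted p = 0.0725), no call.

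Uhrf1, which guides DNMT1 to newly replicated DNA, had levels of 14.4 and 16.6 in the libraries labelled Chd4 shRNA and 22.7 and 21.1 in the scrambled ones. Both of the former were the lowest of the 8 libraries. A log2 fold change of -0.62 ± 0.14 (edgeR adjusted p = 0.00192) made it 1.54-fold lower. Its fall was relative to the other 10-fold genes: with ERCC library sizes, which move the median of all 10-fold genes by 0.18 to 0.59 in this comparison, it was -0.43 to -0.0014 and not called (adjusted p from 0.812 to 0.998).

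Dnmt1, the maintenance enzyme, had levels of 12.7 and 14.2 against 10.7 and 9.31, with no overlap but a log2 fold change of 0.31 ± 0.15 that was not called (edgeR adjusted p = 0.102). Background subtraction brought it to 0.42 ± 0.15 (adjusted p = 0.0272), a call in the direction opposite to Uhrf1. It was also called without either DMSO library (0.31, adjusted p = 0.0402 without r1, and 0.30, 0.0434 without r2), on plain ERCC totals (0.93, 0.0149), among genes at least 30-fold above background (0.48, 0.0456) and after subtraction of the background of other silent genes (0.47, 0.0181). Tet1 had 13.0 and 15.3 against 14.2 and 11.0, which overlapped, and a log2 fold change of 0.05 ± 0.15 (adjusted p = 0.812). Tet2 had 2.81 and 2.98 against 3.92 and 2.63, with a log2 fold change of -0.31 ± 0.15 (adjusted p = 0.0787), and -0.53 without scrambled r3. The scale of the 10-fold genes put Tet2 at 0.06 (edgeR adjusted p = 0.738), and at -0.18 (0.440) with background subtracted. Tdg had 2.27 and 2.53 against 2.29 and 1.88 and a log2 fold change of 0.12 ± 0.17 (adjusted p = 0.585). On the scale of the 10-fold genes Tdg was at 0.49 (adjusted p = 0.0141), a call that ended with background subtracted (0.21, 0.519), and it was called on plain ERCC totals (1.09, 0.00393) and with TMM over the abundant ERCC RNAs (0.94, 0.0314).

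**Figure D3:**
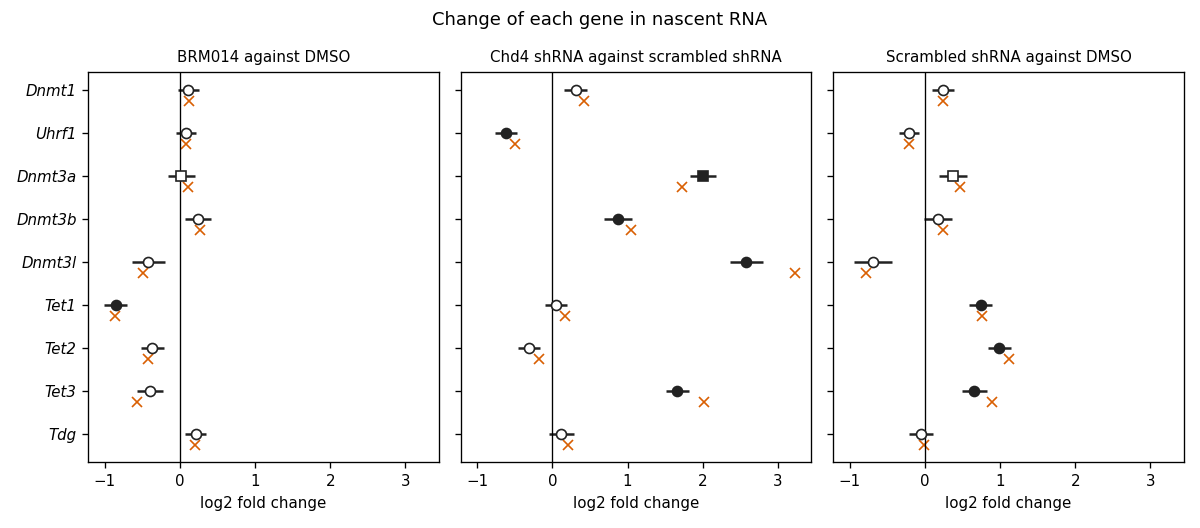
Log2 fold change of each gene in 3 comparisons, as circles with bars of 1 SE (filled where the edgeR adjusted p is under 0.05; squares for Dnmt3a from the added fit), and crosses for the value with background subtracted on the scale of the 10-fold genes. Tet1 is the filled point for BRM014, and Dnmt3l has the largest change, 2.58, in the libraries labelled Chd4 shRNA.

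Ratios of members within a library do not depend on how libraries are scaled; the pairs were chosen after the values were seen and carry no test. The ratio of Uhrf1 to Dnmt1 per kb was 1.13 and 1.17 in the libraries labelled Chd4 shRNA, 2.12 and 2.26 in the scrambled ones, and 2.84 to 3.08 in the BRM014 and DMSO libraries. It was thus lowest where the shRNA was labelled Chd4 and lower in both shRNA groups than in the other pair. The ratio of Tet3 to Tet1 was 0.182 and 0.187 in the libraries labelled Chd4 shRNA and 0.0418 to 0.0664 in the other 6. That of Dnmt3l to Dnmt3b was 2.15 and 2.24, against 0.379 and 0.605 (scrambled), 0.580 and 0.586 (BRM014) and 0.945 and 1.01 (DMSO). Dnmt3l therefore outweighed Dnmt3b per kb clearly in 1 group only. The ratio of Tet1 to Tet2 was 3.55 and 3.71 with BRM014 and 4.76 and 5.11 with DMSO.

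**Figure D4:**
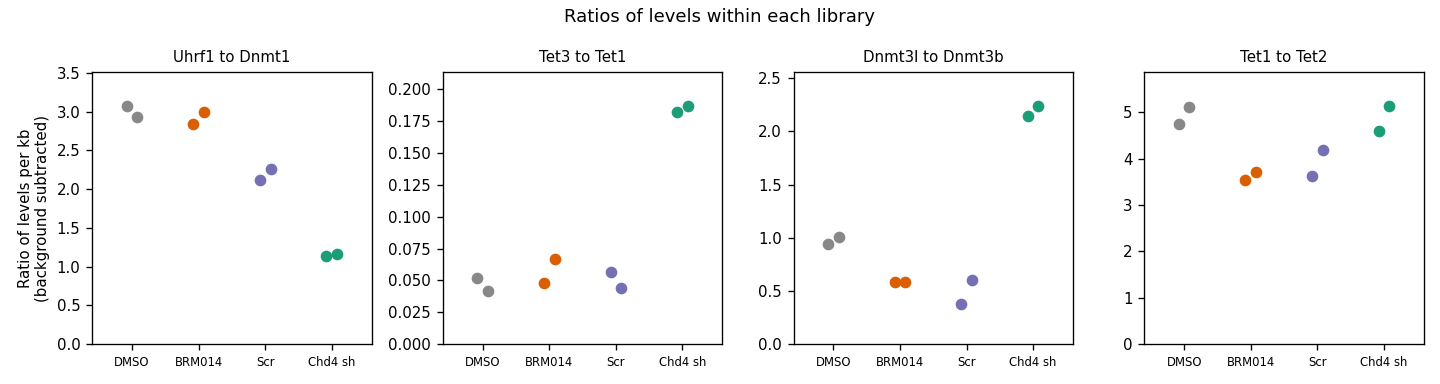
Ratios of background-subtracted levels per kb of 4 gene pairs, with 1 point per library and linear axes from 0. In the libraries labelled Chd4 shRNA the ratio of Uhrf1 to Dnmt1 is lowest (1.13 and 1.17) and those of Tet3 to Tet1 and Dnmt3l to Dnmt3b are highest.

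The interaction term compared both effects directly, as the change labelled Chd4 shRNA less the change with BRM014. Among the 10-fold genes 30.8% were called, and of the 3 members Tet1 was called higher and Uhrf1 lower. Tet1 differed by 0.91 ± 0.21 (edgeR adjusted p = 0.00300) and Uhrf1 by -0.70 ± 0.20 (0.0112). The call of Uhrf1 ended without Chd4 r1 (-0.60) and with the background of other silent genes subtracted (-0.54, edgeR adjusted p = 0.0764). The call of Uhrf1 also ended among genes at least 30-fold above background (-0.53, 0.0772) and on all 3 ERCC scales (-0.60 to -0.07, 0.854 to 0.999). That of Tet1 ended on 2 ERCC scales (0.99, 0.999 and 1.38, 0.0647) and among the 3-fold genes (0.50, 0.0600). Among the 3-fold genes 42.1% were called. Dnmt3l differed by 3.00 ± 0.32 (5.74e-09), Tet3 by 2.06 ± 0.23 (1.87e-08) and Dnmt3b by 0.63 ± 0.25 (0.0394). The call of Dnmt3b was kept in 6 of 18 alternatives. It ended with DESeq2 (0.62, adjusted p = 0.174), with TMM over 92 ERCC RNAs (1.10, 0.662) and with background subtracted, both among the 3-fold genes (0.60, 0.138) and on the scale of the 10-fold genes (0.78, 0.0792), and with that of other silent genes subtracted (0.61, 0.299). It also ended without BRM014 r2, DMSO r2, scrambled r3 or either library labelled Chd4 shRNA (0.46 to 0.64, 0.0841 to 0.207), and that of Tet3 with TMM over 92 ERCC RNAs (2.52, 0.0976). In the added fit Dnmt3a differed by 1.99 ± 0.25 (1.91e-07), where 68.7% of all tested genes were called, but not by DESeq2 (0.35, 0.434). Effects on Dnmt1, Tet2 and Tdg were not shown to differ (adjusted p = 0.500, 0.851 and 0.763). Time, delivery and agent differ between both effects and cannot be told apart.

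The control groups themselves differed in the Tet genes. Scrambled libraries differ from DMSO ones in lentivirus, puromycin, DMSO and hours of treatment, which cannot be told apart, and each control also serves a comparison above. All 3 Tet genes were higher in scrambled libraries: Tet1 1 of 3 members among the 10-fold genes (13.1% of all called), and with Tet2 and Tet3 3 of 8 among the 3-fold genes (10.6% called), with 0 members lower (at an unadjusted p under 0.05, 1 lower, and by DESeq2 0). Tet2 was at 3.92 and 2.63 against 1.43 and 1.58, without overlap, a log2 fold change of 0.99 ± 0.15 (edgeR adjusted p = 1.42e-05). Tet1 was at 14.2 and 11.0 against 6.81 and 8.07, also without overlap, at 0.74 ± 0.15 (0.00259). Tet3, at 0.804 and 0.486 against 0.352 and 0.337, did not overlap and differed by 0.66 ± 0.17 (0.00869). Without scrambled r1 the calls of Tet1 (0.54, adjusted p = 0.0725) and Tet3 (0.42, 0.271) ended. That of Tet3 also ended with TMM over the abundant ERCC RNAs (1.18, adjusted p = 0.0756), without the background filter (0.57, 0.0551) and with no filter on low counts (0.53, 0.105). Markers of 2-cell-like cells also differed between these groups, with a summed level of 2.75 to 3.13 in scrambled and 0.254 to 0.285 in DMSO libraries. None of the 5 stood 10-fold above background and none was at 0 counts, and their part in the values of the Tet genes was not tested. Dnmt3l was lower in both scrambled libraries, -0.69 ± 0.26, without a call (0.0790), and Dnmt1, Uhrf1, Dnmt3b and Tdg were not called (log2 fold changes 0.24, -0.21, 0.17 and -0.05). Dnmt3a, in the added fit with 3.33% of all tested genes called, was at 0.37 ± 0.19 (0.333). With TMM over 92 ERCC RNAs the calls of all 3 Tet genes ended (0.50, 0.83 and 0.54 for Tet1, Tet2 and Tet3).

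Lists of genes around these 9, none of which is itself a member, were described among the 10-fold genes. The share of all 10-fold genes called, 40.6% in the libraries labelled Chd4 shRNA and 7.15% with BRM014, is the background of every count below. Where a list had more than 4 calls, genes beyond the 4 with the smallest p, and genes not called, were named after their values were seen. In the libraries labelled Chd4 shRNA, of 13 genes that supply S-adenosylmethionine or one-carbon units, edgeR called 8 lower and 0 higher (0 higher also at an unadjusted p under 0.05, and by DESeq2 7 lower and 0 higher). Their median log2 fold change was -0.45, against 0.01 over all 10-fold genes, of which 40.6% were called. With background subtracted 5 were called lower. Tdh, the threonine dehydrogenase that feeds one-carbon units in mouse stem cells, fell by 2.04 on the log2 scale (adjusted p = 2.23e-09). Ahcy, which clears the S-adenosylhomocysteine left by methyl transfer, fell by 1.26 (1.11e-06). Others called included Mthfd2 (-0.63), Shmt1 (-0.59), Shmt2 (-0.45), Mthfd1 (-0.45) and Tyms (-0.34) of the folate cycle, and the last 3 lost their calls with background subtracted. Mat2a, the S-adenosylmethionine synthetase, was not called (-0.14, adjusted p = 0.468). Of 17 in the fit of the 3-fold genes, 10 were called lower and 2 higher, where 50.2% of all were called. With background subtracted in that fit, 9 were lower and 2 higher. Those higher in both were Ahcyl2 (1.39, edgeR adjusted p = 1.56e-09) and Gldc (0.88, 3.39e-05), which were only 3-fold genes.

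Of 11 maintenance genes and DNMT partners, 5 fell and 2 rose, where 40.6% of all 10-fold genes were called, with a median of -0.33. Of 14 in the fit of the 3-fold genes, 9 were called lower and 1 higher, where 50.2% of all were called. With background subtracted in that fit, 7 were called lower and 3 higher. Pcna, the sliding clamp that DNMT1 binds at the fork, fell by 1.45 (edgeR adjusted p = 1.04e-07), the deacetylase Hdac2 by 1.12 (1.39e-05) and Trim28, a corepressor at imprints and retroelements, by 0.97 (2.15e-05). Cdca7 (-0.63), a partner of the remodeller HELLS, and Zfp57 (-0.54), which guards imprints, were also lower. Ctcf (0.55) and Usp7 (0.44), a deubiquitinase that binds DNMT1 and UHRF1, were higher among the 10-fold genes, but not called in the fit of the 3-fold genes (0.18, adjusted p = 0.332 and 0.07, 0.714). With background subtracted in that fit, Ctcf (0.46, edgeR adjusted p = 0.0247) and Usp7 (0.40, 0.0339) were called higher. Hells was not called among the 10-fold genes (0.19).

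Of 8 genes known to regulate DNA methylation in stem cells, 5 fell and 2 rose, where 40.6% of all 10-fold genes were called, with a median of -0.61. Nanog fell by 1.55 (edgeR adjusted p = 1.03e-07), Tcl1 by 1.09 (0.000380), Prdm14, a repressor of Dnmt3b, by 0.74 (0.00284), Tfap2c by 0.67 (0.00649) and Dppa4 by 0.55 (0.00481). Kdm5b (0.49) and Zfp281 (0.59) rose, the latter not called with background subtracted (adjusted p = 0.0940), and neither was called in the fit of the 3-fold genes (0.12, adjusted p = 0.524 and 0.22, 0.299). Dppa3, which keeps UHRF1 out of the nucleus, was not called (-0.45, adjusted p = 0.0700). The 7 TET cofactors and partners, which share Nanog and Prdm14 with that list, had 4 lower and 3 higher, beside the same 40.6%. Idh1 (-0.74) and Idh2 (-0.55), sources of the TET cosubstrate 2-oxoglutarate, were lower. Sin3a (0.70), Ogt (0.44), which modifies TET proteins, and Ogdh (0.45) were higher. None of the 3 was called in the fit of the 3-fold genes (0.32, 0.07 and 0.08, adjusted p = 0.0738, 0.705 and 0.656). With background subtracted in that fit, Sin3a was called (0.61, edgeR adjusted p = 0.00469), and Ogt and Ogdh were not.

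Base excision repair genes other than Tdg, with the Gadd45 genes, gave 3 higher and 3 lower of 13 in the libraries labelled Chd4 shRNA, a share near the 40.6% of all 10-fold genes. Ung (-0.63), Gadd45a (-0.67) and Apex1 (-0.58) were lower, and Polb (0.45) and Mbd4 (0.81), a second thymine glycosylase, higher, of which Polb was not called in the fit of the 3-fold genes (0.07, adjusted p = 0.721). The call of Gadd45g (1.43, edgeR adjusted p = 0.0235) was not kept with background subtracted, when it was -0.25 (0.856). Of the 3 methyl-CpG readers, Mbd4 and Mbd6 (0.79) rose and Mbd3 (-0.42), a NuRD subunit, fell, the last without a call once background was subtracted (adjusted p = 0.102). Of the 4 genes with CXXC domains, Kmt2b (0.68) and Fbxl19 (0.53) rose. In that list 0 fell (0 also at an unadjusted p under 0.05 and by DESeq2). Cxxc5, however, was called lower with background subtracted (-0.77, adjusted p = 0.0139). Neither Kmt2b nor Fbxl19 was called in the fit of the 3-fold genes (0.31, adjusted p = 0.0697 and 0.16, 0.415). With background subtracted in that fit, Kmt2b was called (0.56, edgeR adjusted p = 0.00513) and Fbxl19 was not (0.29, 0.196). Of 7 in that fit, 3 were called higher and 1 lower, where 50.2% of all were called. Kmt2a (1.15), Kdm2a (0.77) and Kdm2b (0.52) were higher there and Cxxc5 (-0.63) lower. Of 15 germline genes listed as held by promoter DNA methylation, 3 were 10-fold genes. These were Hormad1 (-1.07), Rpl10l (-0.55) and Tex19.1 (-0.40), all lower, and Tex19.1 lost its call with background subtracted (-0.27, edgeR adjusted p = 0.150). Of the listed germline genes that were only 3-fold genes, Stk31 (log2 fold change 1.67) and Sycp1 (1.35) rose.

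With BRM014, 3 genes of the same lists were called, where 7.15% of all 10-fold genes were called. Base excision repair had 2 higher of 13: Gadd45g, at 1.79 ± 0.14 (edgeR adjusted p = 7.69e-08), and Gadd45a, at 0.89 ± 0.13 (0.000113), stress-induced genes with proposed roles in demethylation. Tex19.1 fell by 0.65 (0.00333), the 1 call among the 3 germline genes. In the one-carbon (13 genes), maintenance (11), regulator (8), TET partner (7), CXXC (4) and reader (3) lists edgeR and DESeq2 called 0 genes. At an unadjusted p under 0.05 those lists had 3, 2, 3, 2, 2 and 1 genes. Gadd45g was also far lower in scrambled than in DMSO libraries (-3.18 ± 0.31, adjusted p = 2.13e-06).

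**Figure D5:**
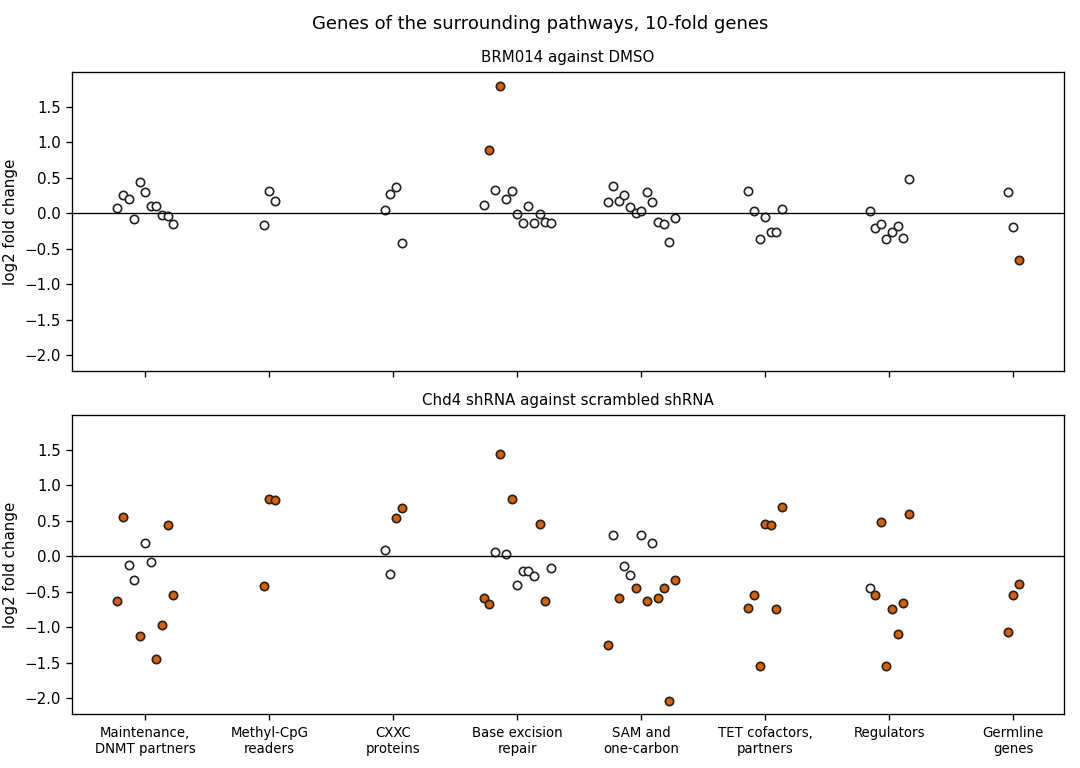
Log2 fold change of each 10-fold gene in the lists around the 9 genes, for BRM014 against DMSO (above) and the libraries labelled Chd4 shRNA against scrambled shRNA (below), with called genes (edgeR adjusted p under 0.05) in orange. One-carbon genes include 8 orange points below 0 in the lower panel and none in the upper one.

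In these bulk samples fewer cells of a type and less RNA per cell cannot be told apart. What part the fibroblast and primitive endoderm markers and the high background had in values of the libraries labelled Chd4 shRNA was not tested. Across the 8 libraries, the 10-fold genes most like Dnmt1 in log level were Arih1 (Pearson r = 0.996), Gm6158 (0.987) and Cdh1 (0.986). Those most like Dnmt3b were Dync1li2 (0.995), Casc3 (0.994) and Washc2 (0.993), and those most like Tet1 were Gm21844 (0.991), Cobl (0.989) and Cluh (0.988). These are descriptions over 8 points that share library, depth and group.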

How the data were processed

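Nascent RNA was counted per gene in 8 libraries of 4 groups. The authors deposited 1 table of raw read counts per gene with gene lengths; per the submitters' processing notes, Trim Galore 0.6.4, STAR 2.7.1a, featureCounts, edgeR 3.32.1 and mm10 were used, and the strand and multimapping settings are not given in the sources used here. Total counts were 6982354 to 17128981 per library. Counts of 92 ERCC RNAs, deposited in a second table, served only as alternative scales.

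Background per kb was measured on 1434 receptor genes. Genes at least 10-fold above it and past filterByExpr (8017) were scaled by TMM and tested with the edgeR 4.0.16 quasi-likelihood F test (R 4.3.3) on all 8 libraries, with Benjamini-Hochberg adjustment and a threshold of 0.05. Members that failed the 10-fold limit were taken from the same fit over 15464 genes at least 3-fold above background, and Dnmt3a from an added fit over all 35426 genes past filterByExpr. Each SE belongs to the log2 fold change. Named genes were the 9 members, the called genes of the lists and the 3 genes most like Dnmt1, Dnmt3b and Tet1. The value of 1 list gene is not reported here. Members and lists were chosen with earlier results of these data known. DESeq2 1.42.0, other scales, filters and left-out libraries were alternatives. The fits were tested on simulated data. Deviations of same-numbered BRM014 and DMSO libraries had r = -0.20 over 8017 genes. The ChIP samples of the series (40) were not used here. RefSeq promoter sequences are of build GRCm38.p6.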

Additional observations from a re-analysis of the deposited data

How the results depend on the processing

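Of the single-gene values for the members, 181 of 185 alternatives kept the call, or its absence, for BRM014 against DMSO. These were 143 of 169 for the libraries labelled Chd4 shRNA, 159 of 169 for scrambled shRNA against DMSO and 129 of 161 for the difference of both effects. A turned direction counted against an alternative only where it or the main value was called. With BRM014, for example, uncalled log2 fold changes ran from -0.06 to 0.31 for Dnmt1 and from -0.07 to 0.24 for Uhrf1. Mean counts of Dnmt3l (56.9) and Dnmt3b (94.4) were the lowest of the members, which limits their precision.

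Counts of called genes by edgeR were 573 (BRM014), 3255 (labelled Chd4 shRNA), 1050 (scrambled against DMSO) and 2473 (difference), with 1, 1, 1 and 2 members among them. Leaving out 1 library in turn gave 239 to 1433, 2177 to 3808, 373 to 1876 and 1611 to 2961 genes, and 0 to 1, 1 to 2, 0 to 2 and 1 to 2 members. BRM014 against DMSO had 1433 genes without DMSO r2, 320 without BRM014 r1 and 239 without its r2; scrambled against DMSO had 1876 without DMSO r2 and 373 without scrambled r1, and the difference 1611 without Chd4 r1. DESeq2 called 303 genes for BRM014 and 686 for scrambled against DMSO.

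TMM over 92 ERCC RNAs left 0, 67, 3 and 24 genes (in the same order of comparisons) and 0 members in each. Plain ERCC totals gave 106 genes for BRM014 (13 higher, 93 lower) with 0 members, 2874 labelled Chd4 shRNA (2809 higher, 65 lower), 430 for scrambled (418 higher, 12 lower) and 1344 for the difference (1322 higher, 22 lower) with 1 member. TMM over the 6 abundant ERCC RNAs gave 68, 1454 (1396 higher, 58 lower), 212 (205 higher, 7 lower) and 460 (449 higher, 11 lower) genes, with 0 members for BRM014, the libraries labelled Chd4 shRNA and the difference. Background subtraction gave 2 members for the libraries labelled Chd4 shRNA, Dnmt1 being added.

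At least 3-fold above background, 1301, 7762, 1638 and 6517 genes were called, with 4, 3 and 4 members in the last 3 comparisons. At least 30-fold, 255, 1717, 582 and 1383 genes were called, with 0, 2, 0 and 0 members of the 2 that remain. Without the background filter, 984 genes were called for BRM014, 22627 for the libraries labelled Chd4 shRNA (8 members, 3 higher and 5 lower) and 16290 for the difference (7 members), and 2 members for scrambled. Without any filter these were 869, 20618 (8 members), 15038 (7 members) and 2 members for scrambled.

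Those 2 unfiltered fits also turned directions. For the libraries labelled Chd4 shRNA the log2 fold changes were, past filterByExpr and with no filter, -1.04 and -1.20 (Dnmt1), -0.11 and -0.26 (Dnmt3b), -1.30 and -1.46 (Tet1), and -0.86 and -1.02 (Tdg). For the difference they were -1.23 and -1.38 (Dnmt1), -0.39 and -0.54 (Dnmt3b), -0.52 and -0.67 (Tet1), and -0.96 and -1.12 (Tet2). The cause was not tested.

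With the replicate number as a block, BRM014 against DMSO had 679 called genes and 1 member, and Tet1 stayed at -0.85; the numbers share only a label. With the DMSO numbers crossed, an alternative added after seeing the data, 778 genes were called. No paired analysis was possible for the shRNA comparison because its columns share only 1 number.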
